A study of Saccharomyces cerevisiae with 7 samples.

Results

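Yeast cells carrying the temperature-sensitive allele sth1-3 were compared with cells carrying the allele scc2-4 after a shift to 37C. The comparison uses 4 of the 7 arrays of the study, 2 titled for sth1-3 and 2 titled for scc2-4. Replicate 1 of sth1-3 was set against replicate 1 of scc2-4, and replicate 2 against replicate 2. The sth1-3 strain, Y4343, was of mating type alpha (MATα) and carried sth1-3ts together with Scc2-Pk9::TRP1. The scc2-4 strain, Y4251, was of mating type a (MATa) and carried Scc1-Pk9::TRP1 and Sth1-9myc::URA3 beside scc2-4. The other 3 arrays held the wild type strain YK700, a MATa strain, with 2 arrays at 37C and 1 at 25C. Its marker alleles are ura3-52, his3-11,15, leu2-3, 112, can1-100, trp1-1 and ade2-1, with GAL and psi+. Per the labels, every culture was kept at 37C for 2 h once it had reached an OD600 of 0.25 in YP medium with glucose (2%), a wording that the wild type 25C sample shares. The mutant strains differ in mating type and in their tagged proteins as well as in the allele, so these cannot be told apart. The labels name 1 strain per mutant and leave unsaid whether its replicates were separate cultures. All p-values therefore cover only the scatter of these arrays, and that scatter may be technical.

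Sth1 is the ATPase of RSC, an essential nucleosome remodeller that keeps nucleosomes off the promoters of many yeast genes. Scc2 and its partner Scc4 form the complex that loads cohesin, the ring that holds sister chromatids together, onto chromosomes. Setting one mutant against the other asks which transcripts depend on the remodeller and not on the loader, or the reverse, when both strains have been through the same heat shift.

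The arrays were one-colour Affymetrix arrays, and the deposited values are log2 intensities. Few genes were above background on all mutant arrays. Background on an array was the 95th percentile of its 1746 probe sets for S. pombe, which lay between 9.95 and 10.02 on the mutant arrays. Of 5449 S. cerevisiae genes, 570 and 439 exceeded it on sth1-3 replicates 1 and 2, and 604 and 513 on scc2-4 replicates 1 and 2. Only 153 genes were above background on all 4 mutant arrays, and 4403 were above it on none. The replicates differed from each other in the same way in both strains. The bacterial hybridisation controls averaged 12.3 and 11.5 on the sth1-3 arrays and 12.5 and 11.5 on the scc2-4 arrays, against 11.7 on both wild type 37C arrays. For 25S ribosomal RNA, the 3' minus 5' difference between probe sets was 4.16 and 0.69 in sth1-3 and 3.03 and 0.31 in scc2-4. That 25S difference was also higher in sth1-3 than in scc2-4 within each pair. For ACT1 it was lower in sth1-3 in each pair, at -0.17 and 0.62 against 0.32 and 1.20 in scc2-4. For 18S ribosomal RNA it went opposite ways in the pairs. The part of these differences in the results was not tested.

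No gene passed the test between sth1-3 and scc2-4. With limma and replicate number as a block, 0 of 5449 genes (0%) were called at an adjusted p under 0.05, and the smallest adjusted p was 0.443. An unadjusted p under 0.05 was reached by 149 genes higher in sth1-3 (2.73%) and 78 lower (1.43%). The standard error of the mean paired difference was 0.335 log2 for the median gene and at most 0.418. The fit gave nearly all genes one common spread, so p understates the error of unusually variable genes. RNA came from whole cultures, so fewer cells expressing a gene and less RNA per cell cannot be told apart.

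The replicate pairs did not show the same differences. In the replicate 1 pair, 359 genes were at least 1 log2 unit higher in sth1-3 (6.59%) and 165 at least 1 log2 unit lower (3.03%). In the replicate 2 pair, the counts were 18 higher (0.33%) and 20 lower (0.367%). A single gene was at least 1 log2 unit higher in both pairs (0.0184%), and 0 genes were lower by that much in both (0%). By any amount, 1304 genes were higher in sth1-3 in both pairs (23.9%) and 1247 lower (22.9%). Among the 153 genes above background on all 4 arrays, 40 were higher in both pairs (26.1%) and 27 lower (17.6%). Across all genes, the paired differences of replicate 1 and replicate 2 correlated at r = -0.0647, and across the 153 genes at r = -0.137. These are correlations across genes, which are not independent replicates. Without regard to pairs, the arrays did not overlap in 460 genes higher in sth1-3 (8.44%) and 524 lower (9.62%).

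**Figure D1:**
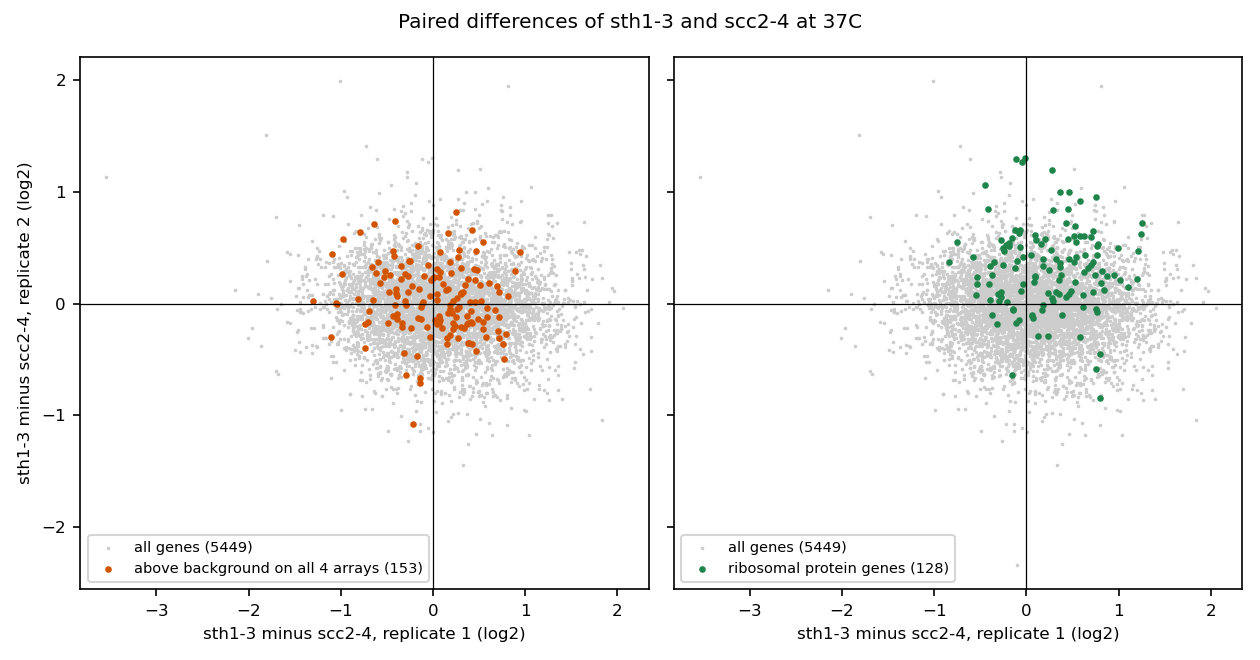
Each point is a gene, with the log2 difference sth1-3 minus scc2-4 in replicate 1 on the x axis and in replicate 2 on the y axis, all 5449 genes in grey, the 153 genes above background on all 4 arrays in orange (left) and 128 ribosomal protein genes in green (right). The orange points scatter around 0 with no shared direction (r = -0.137), and the green points lie mostly above 0 on the y axis, with 106 of 128 higher in sth1-3 replicate 2.

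Differences between the mutants were smaller than those between replicates of either mutant. The SD over all genes was 0.60 for sth1-3 minus scc2-4 in replicate 1 and 0.33 in replicate 2, against 0.76 between the sth1-3 replicates and 0.71 between the scc2-4 replicates. At least 1 log2 unit separated the mutants in 524 genes in replicate 1 and in 38 genes in replicate 2. The same difference separated the replicates in 1057 genes in sth1-3, 775 in scc2-4 and 164 in wild type at 37C. The replicate 2 arrays of sth1-3 and scc2-4 correlated at r = 0.955 across genes, above the 0.915 of the wild type 37C replicates. Leaving out a pair moved the calls. Without replicate 1, limma called 1 gene, YLR154C-H, and without replicate 2 it called 16 genes, 8 higher and 8 lower in sth1-3. Of those 16 genes, 8 had the same sign in the other pair. Each mutant then has 1 array, whose spread is taken from the wild type pair.

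**Figure D2:**
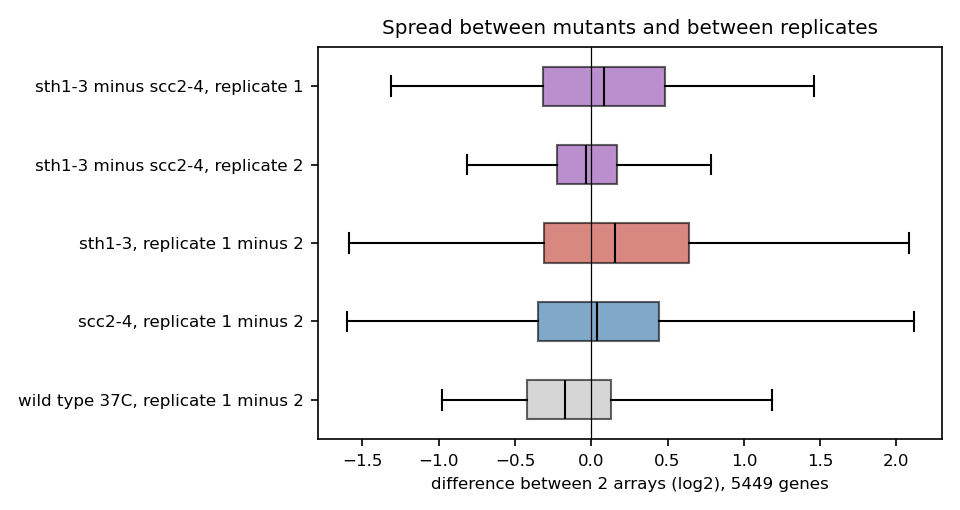
Box plots of the log2 difference between 2 arrays over 5449 genes, with the box at the quartiles, the line at the median and the whiskers at percentiles 1 and 99. The boxes of sth1-3 minus scc2-4 (SD 0.60 and 0.33) are narrower than those between replicates of sth1-3 (SD 0.76) or scc2-4 (SD 0.71).

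The genes of the mutated proteins gave little signal. STH1 measured 8.74 and 9.05 on sth1-3 replicates 1 and 2, against 9.14 and 9.53 on scc2-4 replicates 1 and 2. SCC2 measured 7.50 and 7.66 in sth1-3, against 7.22 and 7.15 in scc2-4. Neither gene was above background on any array, so no fold is given, although the arrays of the strains did not overlap for either. Both alleles act on the protein, and the transcript levels do not check the labels. SCC4, the partner of SCC2 in the loader, was above background on all 4 arrays, at 11.56 and 10.72 in sth1-3 against 11.52 and 10.63 in scc2-4. Its arrays sorted by replicate and not by strain, with a mean paired difference of 0.06.

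The other subunits of RSC and of cohesin were mostly below background. Of 16 measured RSC genes, 14 were not above background on any mutant array, 2 were higher in sth1-3 in both pairs and 4 were lower. RSC8, a core subunit of the remodeller, was the RSC gene above background throughout. It measured 11.01 and 10.73 in sth1-3, against 11.50 and 10.90 in scc2-4, lower in both pairs but with overlap between the strains. RSC1 and RSC4, which carry bromodomains, and STH1 made up the other members lower in both pairs. RSC3, a DNA-binding subunit, and RTT102 were the members higher in both. The RSC list had a median difference of 0.29 in replicate 1 and -0.28 in replicate 2, against 0.08 and -0.03 over all genes. Its shares higher and lower in both pairs were 12.5% and 25%, against 23.9% and 22.9% of all genes. RSC2, an alternative to RSC1 in the complex, went opposite ways in the pairs, at 8.99 and 8.56 in sth1-3 against 8.35 and 9.35 in scc2-4, all below background.

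Of 11 genes for cohesin subunits and regulators, 4 were higher (36.4%) and 5 lower (45.5%) in sth1-3 in both pairs. The shares over all genes were 23.9% and 22.9%. Of the 11 genes, 8 were not above background on any array. PDS1, the securin that restrains cohesin cleavage, was above background on all 4 arrays, at 10.44 and 11.19 in sth1-3 against 10.78 and 11.40 in scc2-4. MCD1, which encodes the cohesin subunit Scc1, measured 8.18 and 8.67 in sth1-3 against 8.50 and 8.96 in scc2-4. SMC1 measured 9.32 and 9.77 against 9.52 and 10.07, in the same order of strains. IRR1, the Scc3 subunit, measured 9.72 and 9.10 in sth1-3 against 9.03 and 9.95 in scc2-4, with opposite signs in the pairs. The mean paired differences of these 4 genes were within the spread between replicates, and MCD1 and IRR1 were below background throughout.

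Markers of mating type did not tell the MATα strain from the MATa strain. All 7 a-specific genes, among them the receptor gene STE2 (9.08 and 8.95 in sth1-3, against 9.13 and 8.90 in scc2-4), were below background on all 4 arrays. Of 9 alpha-specific genes, 6 were measured and 5 of them were not above background. HMLALPHA1, the silent copy of the gene that activates alpha-specific genes, reached 10.27 on sth1-3 replicate 1 and 8.41 on replicate 2, against 8.54 and 8.19 in scc2-4. The active copy at the mating type locus has the same sequence, so its probe set reads both. The a-specific list averaged 8.38 and 8.35 in sth1-3 against 8.25 and 8.55 in scc2-4. The alpha-specific list averaged 8.90 and 8.57 in sth1-3 against 8.74 and 8.22 in scc2-4, but its median differences were -0.11 and 0.18. Of its 6 measured members, HMLALPHA1 and MF(ALPHA)1 were higher in both pairs (33.3%, against 23.9% of all genes). The other 4, STE3, MF(ALPHA)2, SAG1 and AFB1, went opposite ways in the pairs. MF(ALPHA)1, the main gene for the alpha pheromone, had the smallest p of all genes, with 9.58 and 9.14 in sth1-3 against 8.77 and 7.19 in scc2-4 (adjusted p = 0.443, limma). The sth1-3 arrays lay above the scc2-4 arrays, but no array was above background. The wild type 37C arrays, of mating type a, measured 8.59 and 8.53. URA3, the marker of the Sth1 tag in the scc2-4 strain, was below background as well, at 9.00 and 7.98 in sth1-3 against 8.85 and 7.75 in scc2-4. The haploid-specific list, whose genes are on in both mating types, had 2 of 7 members higher in both pairs and 4 lower. GPA1, the G protein subunit of the pheromone pathway, was its member above background throughout, at 10.77 and 10.33 in sth1-3 against 10.73 and 10.30 in scc2-4.

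Among the 40 genes above background on all 4 arrays and higher in sth1-3 in both pairs, 10 were ranked first by the smaller of their paired differences. RPL24B (YGR148C), a protein of the large ribosomal subunit, was first by that measure, with 11.90 and 10.64 in sth1-3 against 11.36 and 10.09 in scc2-4. The paired differences were 0.54 and 0.55, a mean fold of 1.46, and the replicates of each strain lay further apart than the strains. TIF3 (YPR163C), the translation initiation factor eIF4B, had 11.68 and 10.64 in sth1-3 against 11.21 and 10.17 in scc2-4. PMA1 (YGL008C), the plasma membrane proton pump, had 11.79 and 10.65 in sth1-3 against 11.37 and 9.99 in scc2-4. CCW12, a mannoprotein of the cell wall, had 12.45 and 11.52 in sth1-3 against 12.17 and 11.10 in scc2-4. In all 4 of these genes the arrays overlapped between strains and sorted by replicate first.

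RTS3 (YGR161C), linked to protein phosphatase 2A, and MRPS12, a mitochondrial ribosomal protein, were higher in both pairs without overlap. RTS3 measured 11.46 and 11.13 in sth1-3 against 10.52 and 10.67 in scc2-4, a mean fold of 1.62. Its unadjusted p was 0.038 and its adjusted p was 1 in limma. Wild type at 37C measured 10.65 and 10.97. MRPS12 measured 11.07 and 10.91 in sth1-3 against 10.63 and 10.60 in scc2-4. PHO4, the activator of the phosphate regulon, had 11.38 and 11.14 in sth1-3 against 11.08 and 10.82 in scc2-4, again with no overlap. UBC4, a ubiquitin-conjugating enzyme for damaged proteins, had 10.97 and 10.36 in sth1-3 against 10.49 and 10.06 in scc2-4. HOG1, the MAP kinase of the osmotic response, had 10.89 and 10.59 in sth1-3 against 10.60 and 10.11 in scc2-4. HOR7, a gene induced by osmotic stress, had 12.15 and 10.61 in sth1-3 against 11.25 and 10.32 in scc2-4. None of these genes passed the adjusted test.

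Among the 27 genes lower in sth1-3 in both pairs and above background throughout, URN1 and SLT2 ranked first by the smaller of the paired differences, while PAU17 and PAU23 had larger mean differences (-0.71 and -0.65). URN1 (YPR152C), a factor of pre-mRNA splicing, measured 10.29 and 10.26 in sth1-3 against 11.02 and 10.65 in scc2-4, a mean fold of 0.677. SLT2 (YHR030C), the MAP kinase of the cell wall integrity pathway, measured 10.23 and 10.33 in sth1-3 against 10.54 and 10.77 in scc2-4, a mean fold of 0.770. ABP1, which binds actin in cortical patches, measured 10.08 and 10.20 in sth1-3 against 10.37 and 10.85 in scc2-4. The arrays of the strains did not overlap in these genes, nor in DAT1, a protein that binds A-T tracts of DNA, with 10.17 and 10.65 in sth1-3 against 10.91 and 10.84 in scc2-4. PRM7, a pheromone-regulated gene, measured 10.04 and 10.28 in sth1-3 against 10.38 and 10.46 in scc2-4. With the mean of its probe sets in place of the brightest, the PRM7 difference was 0.00497 and so of the other sign.

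The seripauperins are small cell wall proteins of anaerobic cells, and their genes moved mainly with the replicate. PAU17 measured 10.90 and 13.75 in sth1-3 against 12.01 and 14.05 in scc2-4, with 0.043 as its unadjusted p. PAU23 measured 11.98 and 12.86 in sth1-3 against 12.20 and 13.94 in scc2-4. PAU14 measured 10.52 and 11.64 in sth1-3 against 10.76 and 11.86 in scc2-4. Each of the 3 genes was lower in sth1-3 in both pairs, while both replicate 2 arrays lay above both replicate 1 arrays. PAU5, at 10.80 and 12.23 in sth1-3 against 11.10 and 12.25 in scc2-4, differed by 0.02 in replicate 2. Over the list, 1 of 13 measured members was higher in both pairs (7.69%) and 5 were lower (38.5%), against 23.9% and 22.9% of all genes. Of the 13, 10 were read from probe sets shared between members. Values of those 10, PAU14 among them, are uncertain for single genes. PAU17, PAU23 and PAU5 were read from probe sets not marked as shared. The medians of the list were -0.01 in replicate 1 and -0.16 in replicate 2.

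**Figure D3:**
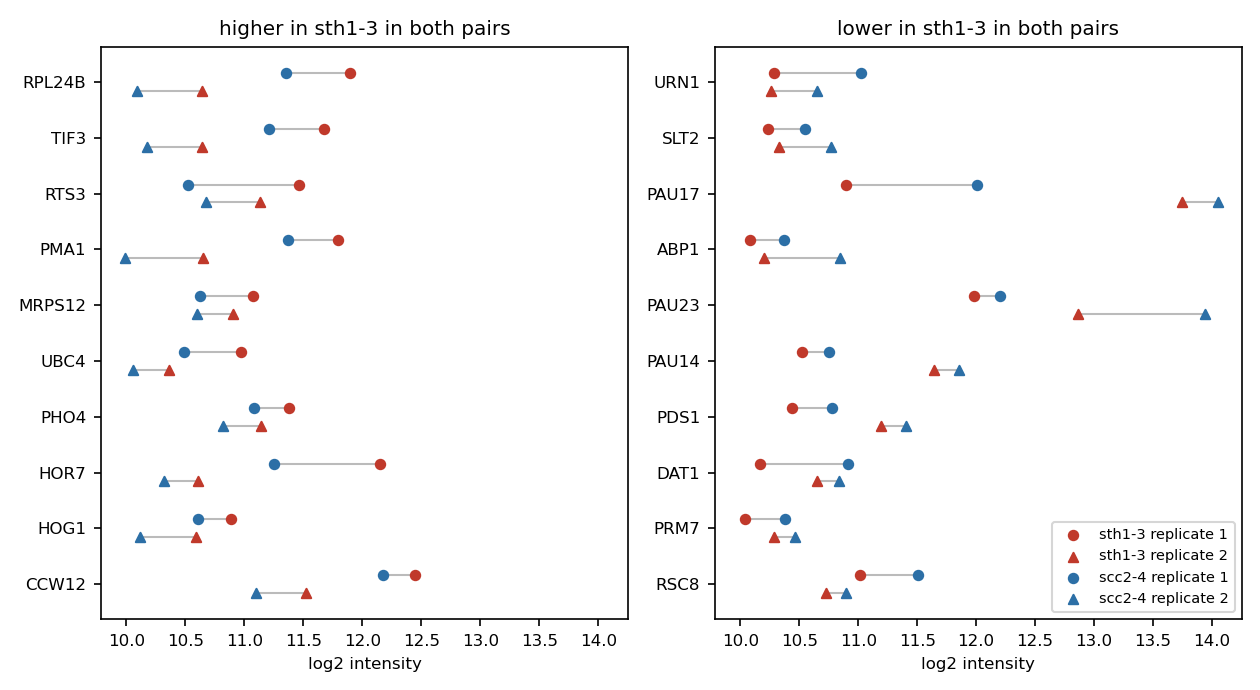
Log2 intensity on the 4 mutant arrays for the 10 genes in each direction ranked first by the smaller of their paired differences, sth1-3 in red and scc2-4 in blue, circles for replicate 1 and triangles for replicate 2, a line joining each pair. RTS3, MRPS12 and PHO4 on the left and URN1, SLT2, ABP1, DAT1 and PRM7 on the right keep the strains apart, while the strains overlap in the other 12 genes.

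The 10 genes of smallest p were mostly dim. Of these, 6 were lower in sth1-3 and 4 higher, and none was above background on all 4 arrays. The single gene past 1 log2 unit in both pairs was CRD1 (YDL142C), the cardiolipin synthase of mitochondria, with 9.85 and 9.65 in sth1-3 against 8.79 and 8.598 in scc2-4. The strains did not overlap and the pairs differed by 1.06 and 1.05, but all 4 values were below background, so no fold is given (adjusted p = 0.902, limma). NCE102, a membrane protein of eisosomes, measured 10.99 and 9.57 in sth1-3 against 9.35 and 8.84 in scc2-4. It was above background on sth1-3 replicate 1 alone and was at least 1.25-fold higher. BCD1, needed for box C/D snoRNAs, measured 8.25 and 9.45 in sth1-3 against 9.95 and 10.05 in scc2-4. Both scc2-4 arrays were above background, but replicate 1 only just (9.946 against 9.945). The scc2-4 mean did not exceed the background of the sth1-3 arrays, so no bound is given. PET112, a mitochondrial amidotransferase subunit, measured 9.00 and 7.25 in sth1-3 against 7.19 and 6.90 in scc2-4. PCL8, a cyclin of the kinase Pho85, measured 7.26 and 9.17 in sth1-3 against 9.13 and 9.55 in scc2-4. ETP1 and the uncharacterised YPL199C were lower in sth1-3 without overlap and below background, and YLL066W-B was lower with overlap.

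Just outside the limit of 1 log2 unit in both pairs lay TAZ1, YPT10, DID2, MF(ALPHA)1 and YGR054W, with smaller paired differences of -0.96, 0.92, 0.83, 0.81 and -0.81. TAZ1 (YPR140W) remodels cardiolipin, the product of the CRD1 enzyme, and measured 7.87 and 9.23 in sth1-3 against 8.87 and 10.19 in scc2-4. It was above background on scc2-4 replicate 2 alone. At 1.5-fold in both pairs, 35 genes were higher and 21 lower in sth1-3. Of these 56 genes, 31 were not above background on any mutant array and 0 were among the 153 above it on all 4.

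A few genes crossed background in one mutant and not the other. LEU4, FRM2, AIM2 and HHO1 were above background on both sth1-3 arrays and on neither scc2-4 array. LEU4, an isopropylmalate synthase of leucine synthesis, measured 10.36 and 10.04 in sth1-3 against 9.55 and 9.31 in scc2-4, at least 1.18-fold higher. HHO1, the linker histone, measured 10.30 and 10.08 in sth1-3 against 9.83 and 9.95 in scc2-4, also at least 1.18-fold higher. FRM2 was at least 1.27-fold higher and AIM2 at least 1.18-fold. In the other direction, 17 genes were above background on both scc2-4 arrays and on neither sth1-3 array. The largest bounds were those of DAP1, a haem-binding protein of sterol synthesis, with 9.99 and 10.00 in sth1-3 against 10.77 and 10.13 in scc2-4 (at least 1.35-fold lower), and of YNR071C and REX2 (at least 1.24-fold lower each). SRL1, a cell wall mannoprotein (at least 1.21-fold lower), and SRX1, the sulfiredoxin that repairs peroxiredoxins (at least 1.20-fold lower), followed. The 9 genes named here lay within 1 log2 unit of background on all 4 arrays. Their bounds are for the mean of the 2 arrays of each mutant, and single pairs could differ by less. The paired differences in replicates 1 and 2 were 0.47 and 0.13 for HHO1, -0.78 and -0.14 for DAP1, and -0.09 and -0.79 for YNR071C.

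Ribosomal protein genes leaned to higher values in sth1-3 in both pairs. Of 138 such genes 128 were measured, and 68 were higher in both pairs (53.1%) and 7 lower (5.47%), against 23.9% and 22.9% of all genes. The median difference was 0.26 in replicate 1 and 0.32 in replicate 2, against 0.08 and -0.03 over all genes. Large subunit genes had medians of 0.23 and 0.34 with 38 of 75 higher in both pairs and 2 lower. Small subunit genes had 0.27 and 0.32 with 30 of 53 higher and 5 lower. Of the 128 members, 11 had an unadjusted p under 0.05, all higher in sth1-3, against 2.73% of all genes higher and 1.43% lower, and 0 passed the adjusted test in limma. This lean was known from earlier results of the same arrays and is not independent support.

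The level of the ribosomal protein genes itself followed the replicate far more than the strain. The list averaged 10.32 and 8.99 in sth1-3 against 10.08 and 8.68 in scc2-4, and 8.61 and 8.58 in wild type at 37C. On sth1-3 replicates 1 and 2, 81 and 16 of the 128 genes were above background, against 76 and 12 on scc2-4 replicates 1 and 2. The replicate 2 difference therefore rests on values that are mostly below background, and 35 genes were above background on no mutant array. Of the 128 genes, 20 had probe sets shared with a near-identical copy. The difference between replicates moved with the hybridisation controls and the 25S 3' to 5' difference given above. That 25S difference was also higher in sth1-3 within each pair, and the ACT1 one was lower. The part of these controls in the list values was not tested.

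Single ribosomal protein genes show the same layering, with the following examples chosen after their values were seen. RPP0, the stalk protein of the large subunit, measured 11.89 and 10.53 in sth1-3 against 10.64 and 9.81 in scc2-4, with an unadjusted p of 0.00381 in limma. Its wild type 37C arrays measured 10.15 and 10.30. RPP2A, another stalk protein, measured 11.52 and 10.15 in sth1-3 against 10.90 and 9.54 in scc2-4. RPS7A, of the small subunit, measured 10.72 and 8.41 in sth1-3 against 9.47 and 7.79 in scc2-4, above background on sth1-3 replicate 1 alone. In each pair of these genes the sth1-3 array was the higher one, and in each strain replicate 1 was. RPL8A, at 10.66 and 9.47 in sth1-3 against 9.93 and 8.82 in scc2-4, was at least 1.08-fold higher. That bound rests on sth1-3 replicate 1, and the probe set is shared with a near-identical copy. RPL23B measured 10.61 and 8.49 in sth1-3 against 9.85 and 7.54 in scc2-4. Of the 128 genes, 9 were above background on all 4 mutant arrays, and of these only RPL24B, RPL6B and RPS29B were higher in both pairs. RPL6B measured 11.10 and 10.24 in sth1-3 against 10.38 and 10.14 in scc2-4, and RPS29B 10.57 and 10.56 against 10.25 and 10.46. The rest of the 9 went opposite ways in the pairs, among them RPS8A (0.06 and -0.11) and RPS11A (-0.28 and 0.10). The lean of the list thus rests mostly on genes below background on some arrays. RPS14B was lower in sth1-3 in both pairs, at 9.09 and 9.30 in sth1-3 against 9.26 and 9.94 in scc2-4, below background.

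Other genes of translation were less uniform. Ribosome biogenesis genes had 30 of 76 members higher in both pairs (39.5%) and 9 lower (11.8%), against 23.9% and 22.9% of all genes. Their medians were 0.16 and 0.07. Of the 76, 65 were not above background on any mutant array and 0 were above it on all 4, so this count rests mostly on values below background. FHL1, a forkhead regulator of ribosomal protein genes, measured 10.77 and 10.48 in sth1-3 against 10.16 and 10.30 in scc2-4, without overlap. Its list of 11 regulators had 4 members higher in both pairs and 3 lower. Among the 3 lower were IFH1, with paired differences of -0.66 and -0.94, and RAP1, with -0.84 and -0.39. Of the 11, 9 were not above background on any mutant array, IFH1 and RAP1 among them. Translation factors had 10 of 32 higher and 7 lower, with medians of -0.08 and 0.07. TEF2, an elongation factor gene, measured 12.81 and 10.79 in sth1-3 against 12.56 and 9.97 in scc2-4. Its probe set is marked as shared, so these values are uncertain for the single gene. RPG1, a subunit of the initiation factor eIF3, was lower without overlap, at 10.71 and 10.57 in sth1-3 against 10.85 and 11.28 in scc2-4. Mitochondrial ribosomal proteins had 10 of 63 members higher and 17 lower, with medians of 0.11 and -0.13.

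**Figure D4:**
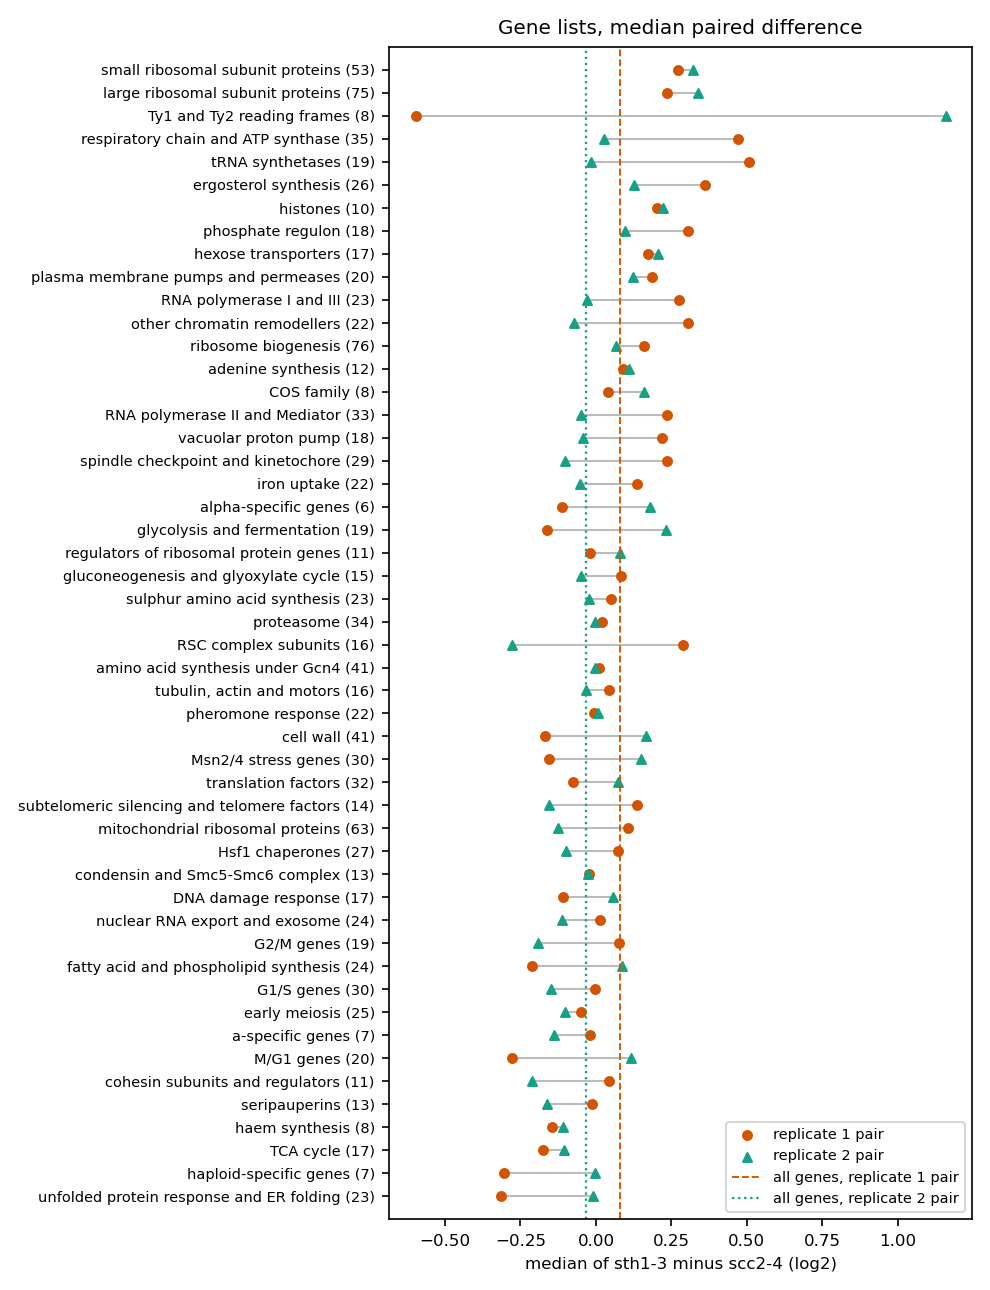
Median log2 difference sth1-3 minus scc2-4 of each of 50 gene lists, with the number of measured members in brackets, circles for the replicate 1 pair and triangles for the replicate 2 pair, and dashed and dotted lines for the medians over all genes (0.08 and -0.03). The ribosomal protein lists lie right of both lines in both pairs, and the Ty reading frames are furthest apart, at -0.60 and 1.16.

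The lists of energy metabolism had no common direction. Their counts stand beside the 23.9% of all genes higher in both pairs and the 22.9% lower. Genes of the respiratory chain and ATP synthase had 16 of 35 members higher in both pairs (45.7%) and 2 lower, with a median of 0.47 in replicate 1 and 0.03 in replicate 2, and 32 members were not above background on any array. TCA cycle genes had 3 of 17 higher and 7 lower, with medians of -0.18 and -0.11. FUM1, the fumarase, was at least 1.23-fold higher, at 10.56 and 9.95 in sth1-3 against 9.86 and 9.70 in scc2-4. MDH2, the cytosolic malate dehydrogenase of gluconeogenesis, was at least 1.15-fold lower, at 9.27 and 9.64 in sth1-3 against 10.71 and 9.72 in scc2-4. Each of these bounds is for the mean of 2 arrays and rests on 1 array above background. In replicate 2 alone, MDH2 differed by -0.08 log2. Glycolysis and fermentation genes had 5 of 19 members higher in both pairs and 2 lower, with medians of -0.16 and 0.23. ENO2, an enolase, measured 12.13 and 10.75 in sth1-3 against 12.30 and 10.24 in scc2-4. TDH3, a glyceraldehyde-3-phosphate dehydrogenase, measured 12.50 and 10.69 in sth1-3 against 12.43 and 10.41 in scc2-4. Both genes were brighter on replicate 1 in either strain.

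Lists of membrane and lipid genes did not all share a direction. The medians of fatty acid and phospholipid synthesis and of the vacuolar proton pump changed sign between the pairs. Those of the other lists named here were positive in both pairs. Fatty acid and phospholipid synthesis genes had 7 of 24 members higher in both pairs and 4 lower, with medians of -0.21 and 0.09, and the vacuolar proton pump had 6 of 18 higher and 6 lower. Ergosterol synthesis genes had 11 of 26 members higher in both pairs (42.3%) and 2 lower, with medians of 0.36 and 0.13. Of the 26, 22 were not above background on any mutant array and 0 were above it on all 4. ERG11, the lanosterol demethylase, measured 11.14 and 9.58 in sth1-3 against 10.21 and 9.23 in scc2-4. Plasma membrane pumps and permeases had 8 of 20 members higher and 1 lower, and PMP2, a proteolipid bound to the Pma1 pump, measured 11.23 and 10.26 in sth1-3 against 10.85 and 10.04 in scc2-4. Hexose transporters and sensors had 8 of 17 higher and 3 lower, with medians of 0.17 and 0.20. Above background on no mutant array were 13 of these 17 genes and 13 of the 20 pumps and permeases. HXT15 measured 10.27 and 9.55 in sth1-3 against 9.68 and 8.52 in scc2-4, from a probe set shared with near-identical transporters. SNF3, a sensor of low glucose, measured 10.90 and 10.39 in sth1-3 against 10.08 and 10.33 in scc2-4, without overlap. The phosphate regulon, which PHO4 activates, had 9 of 18 members higher and 2 lower, with medians of 0.30 and 0.10, and 16 of its members were below background throughout. These shares stand beside the 23.9% of all genes that were higher in both pairs, and 0 members passed the adjusted test in limma.

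Stress and cell wall genes had no common direction. For comparison, 23.9% of all genes were higher in both pairs and 22.9% lower. Of 27 chaperone genes under Hsf1, the heat shock factor, 5 were higher and 5 lower in both pairs. Of 30 stress genes under Msn2 and Msn4, 10 were higher and 7 lower. TPS1, the trehalose phosphate synthase, measured 10.43 and 10.11 in sth1-3 against 10.12 and 10.02 in scc2-4. TSL1, a subunit of the same enzyme complex, measured 10.11 and 10.24 in sth1-3 against 10.55 and 10.35 in scc2-4, without overlap. Unfolded protein response genes had 2 of 23 members higher and 5 lower, with medians of -0.31 and -0.01. KAR2, the chaperone of the endoplasmic reticulum, went opposite ways in the pairs, at 10.81 and 10.48 in sth1-3 against 11.91 and 10.04 in scc2-4. Of 41 cell wall genes, 12 were higher and 8 lower. CRH1 and UTR2, which join chitin to glucan, lay in opposite directions without overlap, with CRH1 at 10.63 and 10.43 in sth1-3 against 10.12 and 10.27 in scc2-4. UTR2 measured 10.69 and 10.38 in sth1-3 against 10.86 and 10.85 in scc2-4.

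Histone genes had 6 of 10 members higher in sth1-3 in both pairs (60%) and 1 lower, with medians of 0.20 and 0.22. None of the 10 was above background on all 4 arrays. Over all genes, 23.9% were higher in both pairs and 22.9% lower, with medians of 0.08 and -0.03, beside which the shares of this paragraph stand. HTA1, a histone H2A gene, measured 9.70 and 9.19 in sth1-3 against 9.64 and 8.87 in scc2-4, and 8 of the 10 genes were not above background on any array. Genes of the G1/S transition had 4 of 30 members higher and 11 lower (36.7%), with medians of -0.002 and -0.15. ASF1, a histone chaperone in that list, measured 9.86 and 10.20 in sth1-3 against 10.54 and 10.56 in scc2-4, without overlap. M/G1 genes had 4 of 20 higher and 5 lower, and their member CTS1, the chitinase of cell separation, was at least 1.02-fold higher, at 10.20 and 9.78 in sth1-3 against 9.05 and 9.58 in scc2-4. The CTS1 bound rests on sth1-3 replicate 1, its only mutant array above background. Early meiosis genes, which haploid cells in rich medium keep off, had 1 of 25 members higher and 9 lower (36%), with 23 below background throughout. SPO13, a regulator of the meiotic divisions, measured 8.86 and 10.32 in sth1-3 against 9.28 and 10.52 in scc2-4.

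Reading frames of the Ty1 and Ty2 retrotransposons differed in opposite directions in the pairs. All 8 were lower in sth1-3 in replicate 1 and higher in replicate 2, with medians of -0.60 and 1.16. YAR009C measured 8.91 and 11.13 in sth1-3 against 12.45 and 9.99 in scc2-4. YER138W-A measured 11.99 and 8.44 in sth1-3 against 13.00 and 6.45 in scc2-4. YAR010C, above background on all 4 arrays, measured 12.11 and 12.47 in sth1-3 against 12.53 and 12.04 in scc2-4. The strains overlapped in each of the 3 genes. The list averaged 10.98 and 10.68 in sth1-3 and 12.06 and 9.60 in scc2-4, against 8.20 and 7.33 in wild type at 37C. On the wild type 25C array YER138W-A measured 12.67, YAR010C 12.33 and YAR009C 9.00, so for the first 2 that array lay near the mutant replicate 1 arrays and above the wild type 37C arrays. Each of the 8 probe sets reads several near-identical copies and so gives no value for a single element.

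Features of the ribosomal DNA region were lower in sth1-3 in replicate 2, and some of them in both pairs. The 5' probe set of 25S ribosomal RNA measured 10.14 and 12.06 in sth1-3 against 11.17 and 12.96 in scc2-4. The 5' probe set of 18S ribosomal RNA measured 11.32 and 13.49 in sth1-3 against 12.04 and 14.24 in scc2-4. Both were lower in sth1-3 in each pair, and replicate 2 was the brighter one in each strain. YLR154C-H, a reading frame in the region, measured 9.45 and 9.03 in sth1-3 against 9.55 and 11.37 in scc2-4, and 11.67 and 11.96 in wild type at 37C. It was at least 1.36-fold lower in sth1-3, a bound that rests on scc2-4 replicate 2. The YLR154C-H difference was -2.34 in the replicate 2 pair and -0.11 in the replicate 1 pair. The 5.8S ribosomal RNA probe set measured 8.0 and 8.92 in sth1-3 against 7.50 and 12.98 in scc2-4, and 12.87 and 12.92 in wild type at 37C. On scc2-4 replicate 2, YLR154C-H and the 5.8S probe set lay near the wild type 37C arrays, and on sth1-3 replicate 2 both lay below them. On the wild type 25C array YLR154C-H was at 11.52 and the 5.8S probe set at 8.404. The part of RNA quality or amplification in these values was not tested.

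**Figure D5:**
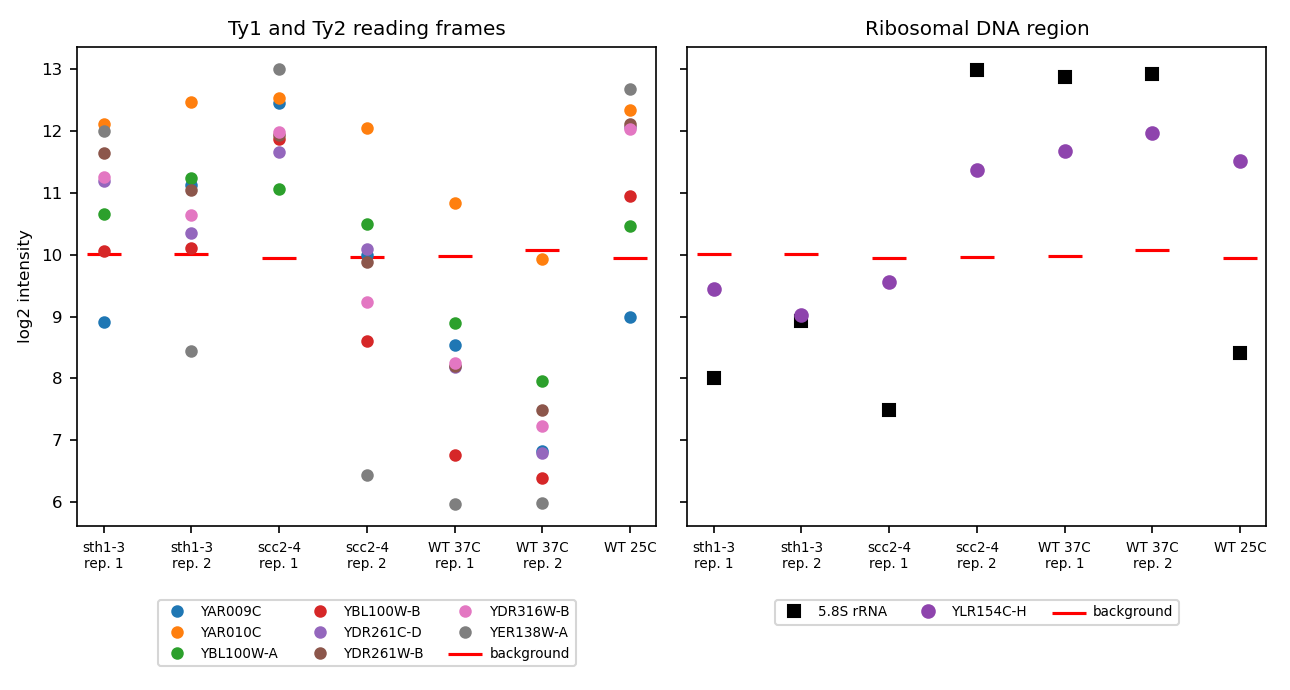
Log2 intensity on each of the 7 arrays for 8 Ty1 and Ty2 reading frames (left) and for the 5.8S ribosomal RNA probe set and YLR154C-H (right), with the background of each array as a red line. Each reading frame lies lower on sth1-3 than on scc2-4 in replicate 1 and higher in replicate 2, while both rDNA features of sth1-3 replicate 2 lie below scc2-4 replicate 2.

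The replicate 2 difference between the mutants ran partly along that between wild type cells at 25C and at 37C. Across all 5449 genes, the replicate 2 difference correlated with wild type 25C minus wild type 37C at r = 0.433, and the replicate 1 difference at r = 0.207. Across the 153 genes above background on all 4 mutant arrays, the values were 0.575 for replicate 2 and -0.0159 for replicate 1. These are descriptions across genes of single arrays. The wild type 25C array shared its high hybridisation controls (12.5) with the replicate 1 arrays of both mutants, while the wild type 37C arrays resembled the replicate 2 arrays, so temperature and array type cannot be told apart in the wild type difference.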

How the data were processed

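Saccharomyces cerevisiae RNA was measured on 7 Affymetrix Yeast Genome arrays. The authors deposited a log2 intensity for each probe set on each array. RMA and affy are named, without versions, in the submitters' processing notes, and whether all arrays were normalized together is not given in the sources used here. The deposited values, from 4.97 to 14.7, were left as they were. The platform annotation gave a single symbol to 7244 of 10928 probe sets, several to 1 and none to 3683. RefSeq gene identifiers assigned 5498 of the 7244 to S. cerevisiae and 1746 to S. pombe, and 12 symbols were updated. The brightest probe set stood for each of 47 genes with several, which left 5449 genes. With 2 arrays per mutant, the number of arrays limits the precision.

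Groups and replicate numbers came from the sample titles. All 7 arrays were fitted with lmFit and eBayes (limma 3.58.1, R 4.3.3), with 4 group means and a term for replicate 2 of the mutants, 2 residual and 105 prior degrees of freedom, two-sided, with Benjamini-Hochberg adjustment. The difference replicate 1 minus 2 in sth1-3 correlated with that in scc2-4 at r = 0.552 over 5449 genes. That check and the hybridisation controls are where the pairing comes from, since the labels give only the numbers. Where a mutant had no array above background for a gene, its level is a bound, taken per array from the higher of background and the gene's own value. An at-least fold compares the means over the 2 arrays of each mutant, so a single pair can differ by less. No fold is given where neither mutant was above background.

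The members and the 50 gene lists (1177 of 1226 genes measured, 10 by an older symbol) were chosen with earlier results of these data known. Genes named were the 10 with the smallest p, the 10 higher and 10 lower with the largest smaller paired difference among genes above background on all 4 mutant arrays, up to 5 each way that crossed background, up to 4 members per list, and the genes of the mutated proteins, marker and mating type genes. TAZ1, YPT10, DID2, YGR054W, the Ty reading frames and several ribosomal protein genes were chosen after their values were seen. Alternatives were fits without the block or with the mutant arrays alone, other normalizations, eBayes settings, background levels, filters and probe set rules, and leaving out arrays. The fit was tested on simulated data. No columns of values were left unused.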

Additional observations from a re-analysis of the deposited data

How the results depend on the processing

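Limma called 0 genes under each of the 11 alternatives that kept all 4 mutant arrays. The number at an unadjusted p under 0.05, 227 here, was 21 with no replicate block over all 7 arrays, 6 with no replicate block over the 4 mutant arrays, and 15 among the 626 genes above background on at least 2 mutant arrays. Leaving out replicates gave between 1 and 16 called genes and between 61 and 700 at an unadjusted p under 0.05. Fewer arrays remain in those fits. The count past 1 log2 unit in both pairs, 1 here, was 2 with centring on the S. pombe median, 0 with quantile normalization and 56 at 1.5-fold, and between 38 and 524 for single pairs (between 1 and 5 for genes above background on all 4 arrays, against 0 in both pairs). The median of small ribosomal subunit genes, 0.275 as the mean of both pairs, was 0.231 with centring on the S. pombe median and between 0.271 and 0.321 in single pairs. Scaling alternatives moved the median of all genes by less than 0.1, but that median was itself only 0.08 in replicate 1 and -0.03 in replicate 2. In replicate 1 it became 0.04 with centring on the S. pombe median, 0.02 with quantile normalization and 0.01 with cyclic loess. In replicate 2 it became -0.08, -0.03 and -0.03, in the same order. Signs turned for YAR010C (-0.0402) and GPA1 (-0.00971) with centring on the S. pombe median, for PAU5 (0.0554) with quantile normalization and for PRM7 (0.00497) with the mean of its probe sets. Single pairs ranged from -3.54 to 1.14 for YAR009C, -0.418 to 0.426 for YAR010C, -1.01 to 1.99 for YER138W-A, -1.10 to 0.441 for KAR2, -0.162 to 0.513 for ENO2, -0.788 to 0.646 for RSC2, -0.841 to 0.693 for IRR1 and -0.0486 to 0.0457 for STE2. The causes were not tested. Both the number of arrays and the signal over background, with 153 genes above it on all 4 mutant arrays, limit the comparison.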

Other observations

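Iron uptake genes had 7 of 22 members higher in sth1-3 in both pairs and 3 lower, with medians of 0.14 in replicate 1 and -0.05 in replicate 2. Among all genes, 23.9% were higher in both pairs and 22.9% lower. CCC2, the copper transporter that supplies the iron oxidase, measured 10.69 and 9.98 in sth1-3, against 10.01 and 9.37 in scc2-4. Haem synthesis genes had 2 of 8 higher and 4 lower, and all 8 were below background on the 4 mutant arrays. The COS genes, a family of sorting proteins near chromosome ends, had 5 of 8 members higher and 1 lower, with 3 of the 8 read from shared probe sets and 6 below background throughout.

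Among genes of transcription and chromatin, the chromatin remodellers other than RSC had a median of 0.31 in replicate 1 and -0.07 in replicate 2, RNA polymerase I and III subunits 0.27 and -0.03, and RNA polymerase II and Mediator 0.23 and -0.05. Members went opposite ways in the pairs in 16 of 22, 16 of 23 and 23 of 33 cases, beside 10 of 16 for RSC and 2898 of 5449 for all genes. Of the 50 lists, 11 had positive medians in both pairs, 9 had negative medians in both and the other 30 did not keep a sign.

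The 3517 probe sets with no usable gene name and no control role were not used above. Of these, 46 were above background on all 4 mutant arrays. Past 1 log2 unit in both pairs, 0 were higher and 2 lower in sth1-3, and neither of the 2 was above background on all 4 arrays.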
